A study of Macaca mulatta with 9 samples.

Results

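Eosinophil and basophil genes were measured in the whole blood of the rhesus macaque, Macaca mulatta. The set names 10 genes, and 9 of the 24371 genes listed in the deposited table are among them: CCR3, EPX, IL5RA, PRG2, GATA2, HDC, CPA3, FCER1A and MS4A2. CLC, the Charcot-Leyden crystal protein, was not analysed here. The study used 9 animals of labelled genotype WT, assigned at random to 3 groups of 3. One group received extracellular vesicles (EV) labelled ABPC, which the series title spells out as antler blastema progenitor cells (here ABPC_EV). Another received vesicles labelled FBMSC (FBMSC_EV), and the vehicle group received PBS, with its animals also described as Old. The sources used here give no dose, number of injections, time of bleeding or age, and the labels name no other difference between the groups. Each library came from 1 animal.

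Eosinophils and basophils are rare granulocytes that arise from bone marrow progenitors under the control of GATA factors. Eosinophils carry toxic granule proteins, respond to interleukin 5 for growth and survival, and follow eotaxins through the receptor CCR3. Basophils, like tissue mast cells, bind IgE through a high-affinity receptor and release histamine and proteases when the receptor is cross-linked. Both cell types are known for their part in allergy and in defence against worms, and in blood they make up a small share of leukocytes.

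The values given are levels per 1000000 that behave like TPM: reads were divided by a constant for each gene, then scaled to a total of 1000000 per library. Levels of different genes can therefore be set side by side per unit length. Adult globin transcripts (HBB, HBA and HBA1) filled 70.9% to 82.4% of that total in ABPC_EV libraries, 82.3% to 87.6% in FBMSC_EV libraries and 88.2% to 92.7% in PBS libraries. Outside 6 genes for which whole reads could not be recovered, among them these 3 globins, libraries held 6.47 to 7.77 M reads (units of 1000000) under ABPC_EV, 5.13 to 6.37 M under FBMSC_EV and 2.85 to 4.43 M under PBS. Genes at a value of at least 1 numbered 10655 to 11941, 8956 to 9676 and 5393 to 8429 in the same order. Because the total is fixed, the room left for leukocyte genes differed between groups, and each result is given as deposited and after median-ratio scaling, which divides each library by the median ratio of its genes to their geometric means. PBS replicate 1 stood apart, with the highest globin share and the fewest reads, so results are also given without it.

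As deposited, CCR3 was the most abundant member under ABPC_EV, with a mean of 27.2 ± 4.16 (SD, n = 3 for every mean here). EPX followed at 16.2 ± 5.1, GATA2 at 6.39 ± 4.14, FCER1A at 3.87 ± 2.3, CPA3 at 2.16 ± 1.13 and IL5RA at 1.44 ± 0.167. MS4A2 at 0.727 ± 0.493, HDC at 0.429 ± 0.263 and PRG2 at 0.302 ± 0.308 lay below 1. All CCR3 libraries lay above all EPX libraries, and these above all GATA2 libraries. GATA2, FCER1A, CPA3 and IL5RA each overlapped the next in this order, as did MS4A2, HDC and PRG2, and these neighbours did not differ beyond their spread. The same 3 genes, MS4A2, HDC and PRG2, were lowest in FBMSC_EV blood (means of 0.602, 0.168 and 0.294). In PBS blood PRG2 (0.0147) and HDC (0.129) were lowest, followed by IL5RA (0.327) and MS4A2 (0.337). PRG2 encodes major basic protein, a chief constituent of the eosinophil granule, and its mean stood below that of the other granule gene EPX in all 3 groups, although PRG2 (0.502) exceeded EPX (0.378) in FBMSC_EV replicate 1.

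**Figure D1:**
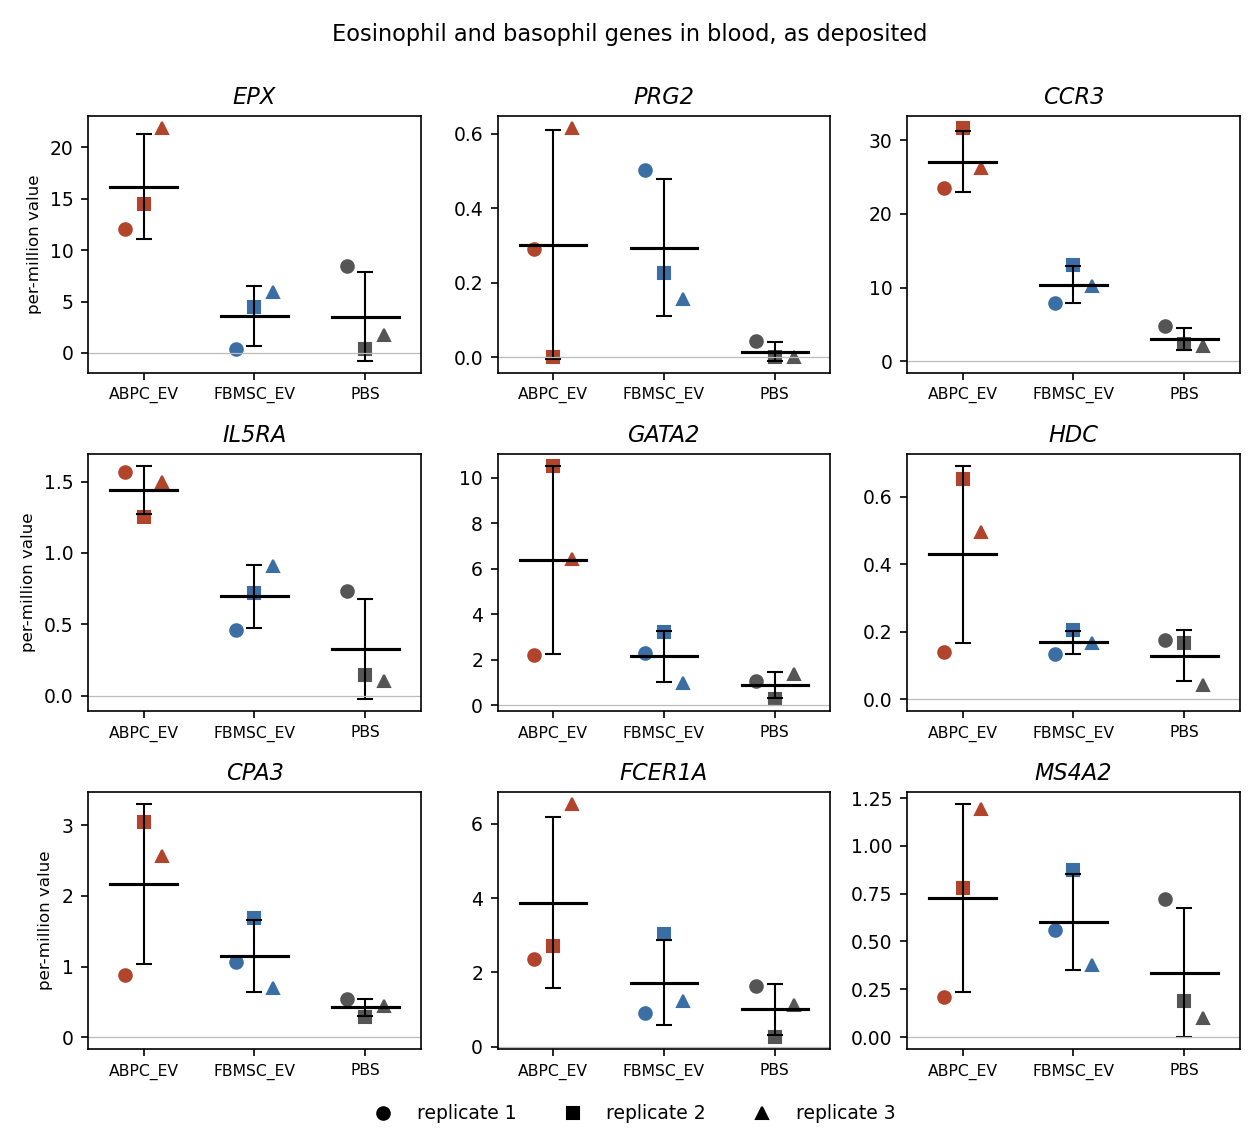
Levels per 1000000 as deposited (vertical axis, linear, own range per gene) of the 9 members in each library, by group; symbols mark replicates, the thick line is the group mean and the bar 1 SD (n = 3). CCR3 lies between 23.5 and 31.7 under ABPC_EV, between 7.93 and 13 under FBMSC_EV and between 2.08 and 4.74 under PBS, with no overlap of the groups, while EPX in PBS replicate 1 (8.46) stands above every FBMSC_EV library.

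Granule proteins of eosinophils are described first. EPX encodes eosinophil peroxidase, which makes oxidants from hydrogen peroxide. It had values of 12.1, 14.5 and 21.9 in ABPC_EV libraries, 0.378, 4.49 and 5.97 in FBMSC_EV libraries, and 8.46, 0.366 and 1.77 in PBS libraries (replicates 1 to 3 in each list). Every ABPC_EV library was above every other library, whereas FBMSC_EV and PBS overlapped, with 1 library below 1 in each. These values rested on 425 to 713 reads under ABPC_EV, 17 to 290 under FBMSC_EV and 22 to 481 under PBS. The 481 reads were those of PBS replicate 1. PRG2 rested on 5, 0 and 8 reads under ABPC_EV, 9, 4 and 3 under FBMSC_EV, and 1, 0 and 0 under PBS. Such counts are too few to set an order between the vesicle groups. All FBMSC_EV libraries were above all PBS libraries for PRG2, but with no filter on low values its adjusted p was 0.287 (limma), and the difference was not detectable at this depth.

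Receptors for eosinophil growth and traffic come next. CCR3, a receptor for eotaxins that is also carried by basophils, had values of 23.5, 31.7 and 26.2 in ABPC_EV libraries, 7.93, 13 and 10.2 in FBMSC_EV libraries, and 4.74, 2.31 and 2.08 in PBS libraries. The groups did not overlap in any pair. Its reads ran from 333 to 397 under ABPC_EV, 139 to 226 under FBMSC_EV and 38 to 105 under PBS. IL5RA encodes the chain of the interleukin 5 receptor that binds the cytokine. It had 1.57, 1.25 and 1.5 in ABPC_EV libraries, 0.463, 0.719 and 0.906 in FBMSC_EV libraries, and 0.732, 0.147 and 0.102 in PBS libraries. All ABPC_EV libraries were highest, and PBS replicate 1 lay within the FBMSC_EV range.

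GATA2 is a transcription factor of blood progenitors that basophils and mast cells retain, and megakaryocyte progenitors also use it. Its values were 2.23, 10.5 and 6.41 in ABPC_EV libraries, 2.3, 3.21 and 0.972 in FBMSC_EV libraries, and 1.06, 0.274 and 1.39 in PBS libraries. ABPC_EV replicates 2 and 3 stood above all others, and ABPC_EV replicate 1 fell within the FBMSC_EV range. Reads for GATA2 numbered 141 to 451 under ABPC_EV, 69 to 209 under FBMSC_EV and 24 to 95 under PBS.

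Enzymes of basophil and mast cell granules were low. CPA3, a carboxypeptidase stored with histamine in these granules, had 0.887, 3.05 and 2.56 in ABPC_EV libraries, 1.07, 1.69 and 0.692 in FBMSC_EV libraries, and 0.535, 0.293 and 0.444 in PBS libraries. Both vesicle groups were above all PBS libraries and overlapped each other. HDC, the enzyme that makes histamine from histidine, had 0.14, 0.652 and 0.496 in ABPC_EV libraries, 0.135, 0.204 and 0.166 in FBMSC_EV libraries, and 0.177, 0.168 and 0.043 in PBS libraries. Here all 3 groups overlapped, on 2 to 19 reads per library.

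Chains of the high-affinity IgE receptor close the list. FCER1A, the IgE-binding alpha chain, is also carried by dendritic cells. It had 2.37, 2.72 and 6.53 in ABPC_EV libraries, 0.89, 3.03 and 1.23 in FBMSC_EV libraries, and 1.63, 0.25 and 1.12 in PBS libraries. ABPC_EV libraries were all above PBS libraries, and FBMSC_EV replicate 2 lay within the ABPC_EV range. MS4A2, the beta chain that amplifies the receptor's signal, had 0.211, 0.778 and 1.19 in ABPC_EV libraries, 0.559, 0.872 and 0.376 in FBMSC_EV libraries, and 0.723, 0.19 and 0.0974 in PBS libraries. These overlapped in every pair of groups, on 2 to 18 reads per library.

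**Figure D2:**
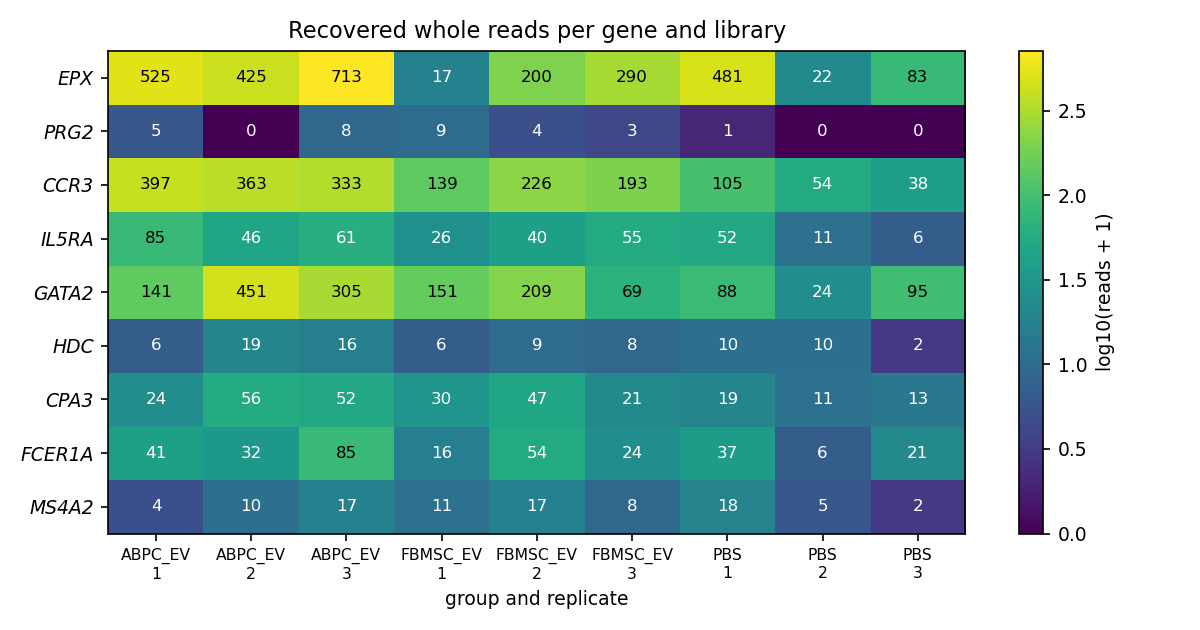
Whole reads recovered for each member (rows) in each library (columns, by group and replicate), with colour on a log10(reads + 1) scale. EPX, CCR3 and GATA2 carry most of the reads, PRG2 has 0 to 9 in any library, and the PBS libraries have the fewest reads for CCR3 (38 to 105).

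The comparison of ABPC_EV with PBS sets animals that received antler progenitor vesicles against those that received vehicle. All 3 comparisons draw on the same 9 libraries, and both that include PBS share its 3 libraries. As deposited, CCR3, EPX, GATA2, FCER1A, CPA3 and IL5RA all rose under ABPC_EV. Of the 9 members, 6 passed the filter on low values (at least 1 in 3 or more libraries) and were tested with limma on log2(value + 1), and 6 of these 6 rose. So did 90.9% of the 10596 genes tested (91% passed in either direction, and 91.3% had an unadjusted p under 0.05), with a median log2 fold change of 1.41, so the members' count is near the background and is no result about these cells. IL5RA reached 1 in ABPC_EV libraries only, and CPA3 in libraries of the vesicle groups only, so these were tested through the groups in which they were high. A larger number of these cells in the blood and more RNA per cell cannot be told apart in whole blood.

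CCR3 rose by 2.85 on the log2 scale (SE 0.39, limma adjusted p = 0.000191), a ratio of means of 8.93. EPX rose by 2.34 (SE 0.56, adjusted p = 0.000776), and GATA2 by 1.82 (SE 0.41, adjusted p = 0.000533). These 3 lay above the median of all genes, by 1.44, 0.93 and 0.41. FCER1A rose by 1.25 (SE 0.37, adjusted p = 0.00356), CPA3 by 1.08 (SE 0.31, adjusted p = 0.00299) and IL5RA by 0.91 (SE 0.28, adjusted p = 0.00418), which are 0.16, 0.33 and 0.51 short of that median. The 1 added to each value understates the change of genes near or below that level, and ratios of means for these 3 were 3.88, 5.11 and 4.41. For EPX and GATA2 the ratios of means were 4.58 and 7.04. CPA3 thus had a larger ratio than EPX, though its fitted change was smaller. Members' libraries did not overlap, ABPC_EV above PBS, in 6 of 6 cases, against 85.4% of all genes tested. For IL5RA, which reached 1 in ABPC_EV libraries only, this was fixed by the filter, and CPA3 passed the filter through the vesicle groups. Without PBS replicate 1 all 6 still passed, and so they did with any other single library left out, with adjusted p of at most 0.0314. With 10 erythroid genes removed and the remaining values rescaled to the same total, 0 of 6 members and 0 genes passed in limma, and CCR3 had a change of 1.95 (adjusted p = 0.0855). For the members below the filter, fits with no filter gave log2 changes of 0.33 for PRG2 (adjusted p = 0.131), 0.32 for HDC (0.0715) and 0.36 for MS4A2 (0.302). After scaling these were 0.13, -0.12 and -0.38 (limma adjusted p of 0.775, 0.803 and 0.776), so the sign turned for HDC and MS4A2.

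After median-ratio scaling, which left a median log2 change of 0.02 over all genes, 0 of 6 members and 0 of 10596 genes (0%) passed in limma. At an unadjusted p under 0.05 there were 1 member, CCR3, and 1071 genes (10.1%). CCR3 then had values of 15.8, 14.6 and 10.7 in ABPC_EV libraries and 14.3, 4.85 and 2.75 in PBS libraries, a log2 change of 1.06 (SE 0.43, 95% interval 0.09 to 2.03, adjusted p = 0.444). PBS replicate 1 lay within the ABPC_EV range, and the other PBS libraries lay below it. Members without overlap, ABPC_EV above PBS, numbered 0 of 6 after scaling, against 6.78% of all genes. EPX had 8.15, 6.66 and 8.91 in ABPC_EV libraries against 25.6, 0.771 and 2.34 in PBS libraries. ABPC_EV libraries lay close together while PBS libraries spanned the whole range, and the log2 change was 0.72 (95% interval -1.30 to 2.73, adjusted p = 0.81). Its ratio of means was 0.827, so mean and fitted change differ in direction for EPX.

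GATA2 had a scaled log2 change of 0.50 (95% interval -0.42 to 1.41), CPA3 of 0.07 (-0.48 to 0.63), IL5RA of 0.04 (-0.74 to 0.83) and FCER1A of -0.02 (-1.02 to 0.98). These intervals do not show that the groups were alike. Without PBS replicate 1 the scaled changes were 1.93 for EPX, 1.66 for CCR3, 0.87 for GATA2, 0.56 for IL5RA, 0.55 for FCER1A and 0.33 for CPA3, none of which passed (limma adjusted p from 0.244 to 0.802). EPX moved to -0.08 without PBS replicate 2 and to 0.38 without PBS replicate 3, and CCR3 to 0.62 without PBS replicate 3.

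**Figure D3:**
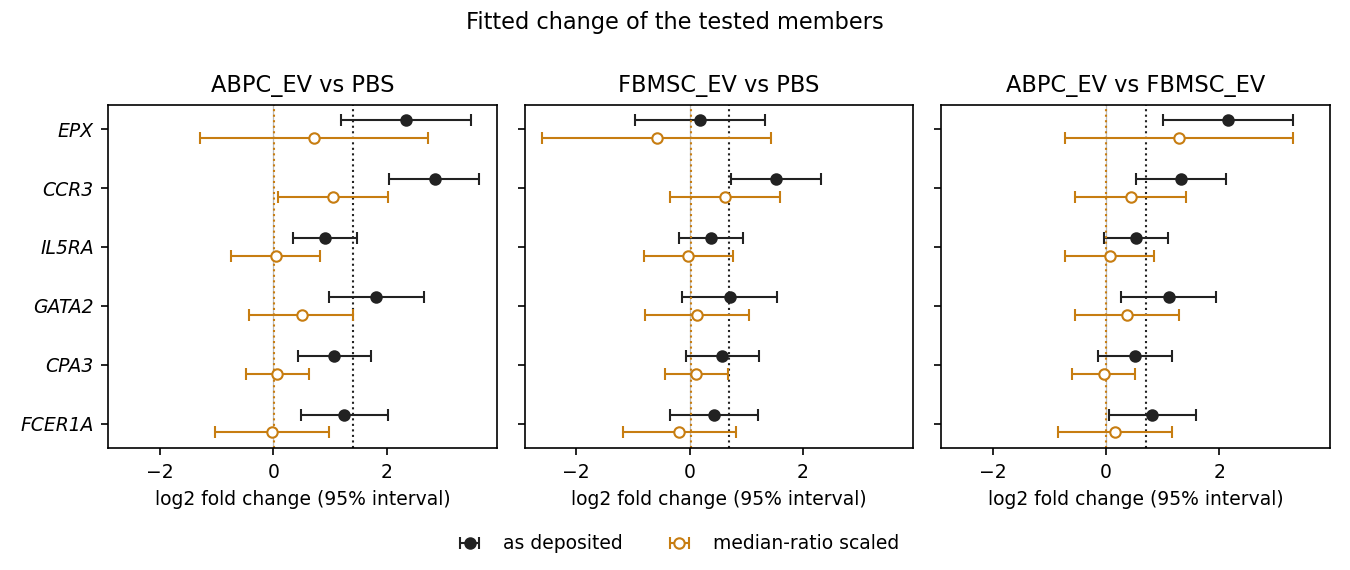
Fitted log2 fold change (horizontal axis) with its 95% interval for the 6 tested members in the 3 comparisons, as deposited (filled) and median-ratio scaled (open); dotted lines mark the median of all genes tested on each scale. As deposited, CCR3 under ABPC_EV against PBS lies at 2.85, beyond the all-gene median of 1.41, and after scaling at 1.06 with an interval of 0.09 to 2.03.

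After scaling, the coefficient of variation (SD over mean) was higher in PBS than in either vesicle group for 9 of 9 members. This was not tested, and the share of all genes with this pattern was not computed. PBS libraries held the fewest reads, with 1, 0 and 0 for PRG2, 10, 10 and 2 for HDC and 18, 5 and 2 for MS4A2. In the scaled values, PBS replicate 1 was the highest of the PBS libraries for 9 of 9 members, again without a share of all genes. It was the highest of all 9 libraries for 6 of them: EPX, IL5RA, HDC, CPA3, FCER1A and MS4A2. Scaled IL5RA was 2.21 there, against 0.308 and 0.135 in PBS replicates 2 and 3, and scaled MS4A2 was 2.19 against 0.4 and 0.129. Scaled FCER1A was 4.91, against 0.526 and 1.48. As deposited PBS replicate 1 was also the highest PBS library for 8 of 9 members, all but GATA2, although the deposited scale gave it the least room. EPX took 169 of every 1000000 recovered reads in that library, against 4.97 and 21.4 in the other PBS libraries and 58.8 to 91.7 in ABPC_EV libraries. The coefficient of variation of scaled EPX was 14.5% in ABPC_EV, 85.2% in FBMSC_EV and 145% in PBS blood. For scaled CCR3 it was 19.6%, 16.1% and 84.4% in that order. PBS replicate 1 also had the smallest size factor, 0.331, against 0.475 and 0.757 in the other PBS libraries, and the part of this in its high scaled values was not tested.

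**Figure D4:**
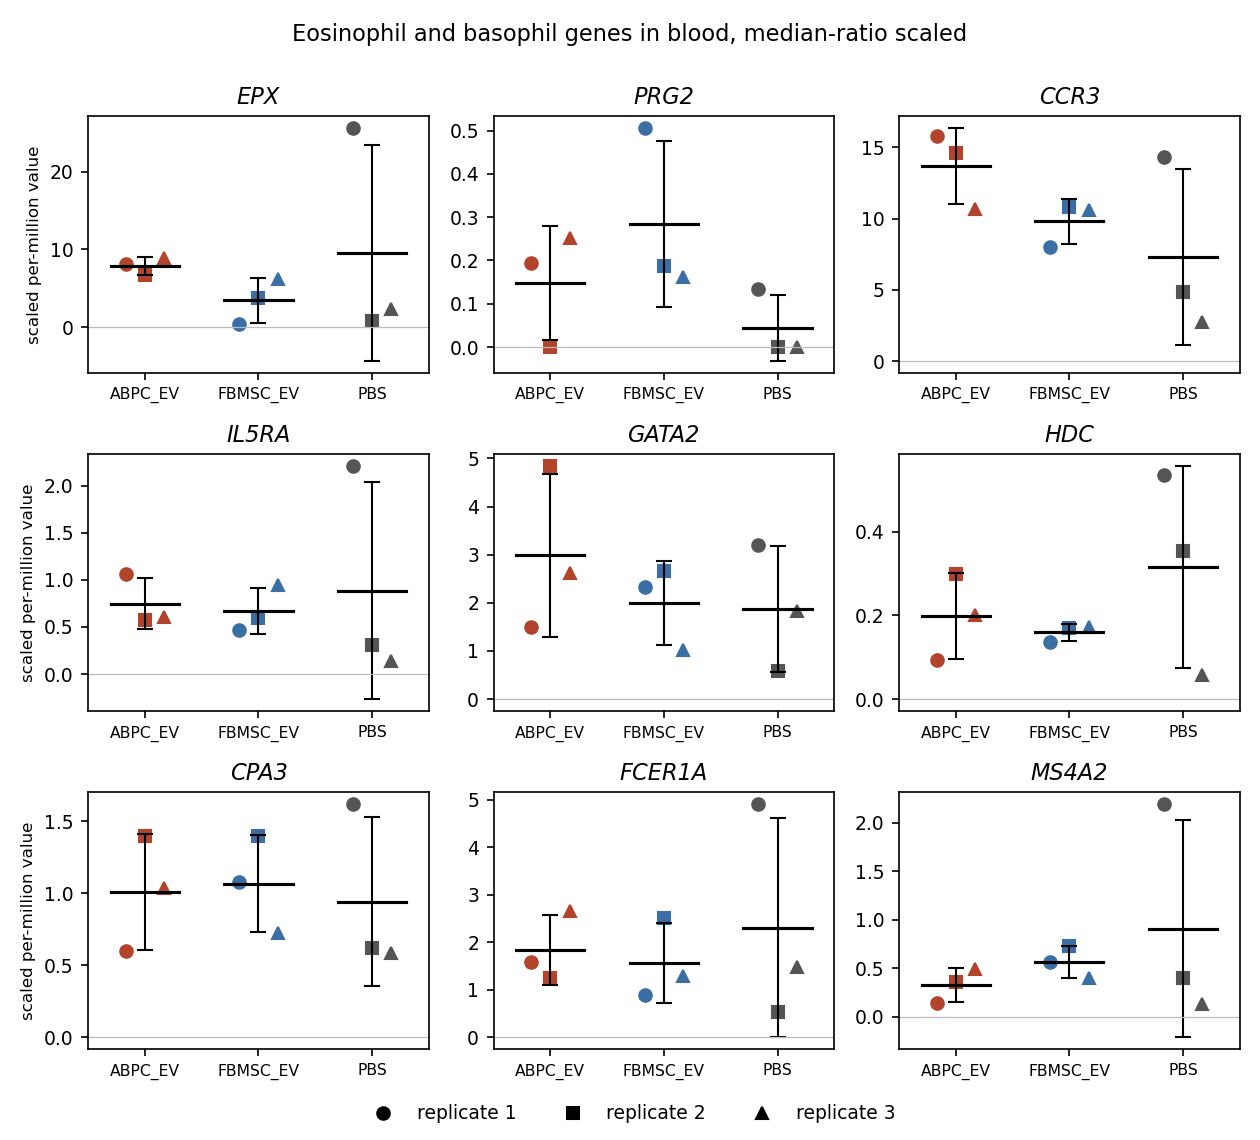
Median-ratio scaled levels per 1000000 (vertical axis, linear, own range per gene) of the 9 members in each library, by group; symbols mark replicates, the thick line is the group mean and the bar 1 SD (n = 3). PBS replicate 1 (circle) is the highest library for EPX (25.6), IL5RA (2.21), FCER1A (4.91) and MS4A2 (2.19), and ABPC_EV libraries overlap PBS libraries for every member.

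The comparison of FBMSC_EV with PBS asks the same of the other vesicles. As deposited, 0 of 6 tested members passed in limma, against 27 of 10596 genes that rose (0.255%) and 1 that fell (0.264% together). At an unadjusted p under 0.05 there were 1 of 6 members and 4637 genes (43.8%), and the median log2 change of all genes was 0.70. CCR3 was the member at that level, with a log2 change of 1.53 (SE 0.39, adjusted p = 0.0699) and a ratio of means of 3.41. Its call depended on single libraries: the adjusted p was 0.0327 without PBS replicate 3, 0.0211 without ABPC_EV replicate 2 and 0.0469 without ABPC_EV replicate 1. Without PBS replicate 3 the count over all genes was 4526. GATA2 had a change of 0.71, CPA3 of 0.57, FCER1A of 0.43, IL5RA of 0.38 and EPX of 0.19. CCR3 and CPA3 showed no overlap, FBMSC_EV above PBS, 2 of 6 members against 50.9% of all genes. Of these, CPA3 passed the filter through the vesicle groups only.

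After scaling, 0 of 6 members showed no overlap, FBMSC_EV above PBS, against 4.9% of all genes. Likewise 0 of 6 members and 0 genes (0%) passed in limma, and 0 members and 510 genes (4.81%) had an unadjusted p under 0.05. Scaled CCR3 was 8, 10.8 and 10.6 in FBMSC_EV libraries, against 14.3, 4.85 and 2.75 in PBS libraries, with a log2 change of 0.63 (95% interval -0.34 to 1.60). Scaled EPX was 0.381, 3.73 and 6.23 against 25.6, 0.771 and 2.34, a change of -0.58 (-2.60 to 1.44). FBMSC_EV replicate 1 was the lowest of all 9 libraries for scaled EPX. In this library neutrophil markers summed to 3277 after scaling, against 630 and 897 in the other FBMSC_EV libraries, and their part in the EPX value was not tested. GATA2 changed by 0.13 (-0.79 to 1.05), CPA3 by 0.12 (-0.44 to 0.67), IL5RA by -0.02 (-0.81 to 0.76) and FCER1A by -0.18 (-1.18 to 0.82). Without PBS replicate 1 all 6 fitted changes were positive, from 0.37 for FCER1A to 1.22 for CCR3, and 0 passed.

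The comparison of ABPC_EV with FBMSC_EV sets the vesicle types against each other. As deposited, EPX had a log2 change of 2.15 (SE 0.56, limma adjusted p = 0.0684), CCR3 of 1.32 (SE 0.39, 0.0737), GATA2 of 1.11 (SE 0.41, 0.0737) and FCER1A of 0.82 (SE 0.37, 0.0909). CPA3 had 0.51 (SE 0.31, 0.172) and IL5RA 0.53 (SE 0.28, 0.119). Hence 0 of 6 members passed, against 62 of 10596 genes that rose (0.585%) and 0.642% called in either direction. At an unadjusted p under 0.05 there were 4 of 6 members and 48.3% of all genes. Libraries of ABPC_EV lay above those of FBMSC_EV without overlap for EPX, CCR3 and IL5RA, 3 of 6 members against 50.5% of all genes. IL5RA reached 1 in ABPC_EV libraries only, so the values that passed it through the filter also fixed its lack of overlap. Leaving out ABPC_EV replicate 1 brought the members called to 5 and the genes called to 4863. Without PBS replicate 3 there were 2 members, EPX and CCR3, and 2512 genes. With EPX as the only member, 1 passed without PBS replicate 1, PBS replicate 2, ABPC_EV replicate 2, FBMSC_EV replicate 2 or FBMSC_EV replicate 3.

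After scaling, EPX was the 1 tested member of 6 whose ABPC_EV libraries (8.15, 6.66 and 8.91) stayed above all FBMSC_EV libraries (0.381, 3.73 and 6.23), against 4.63% of all genes tested. Its log2 change was 1.29 (95% interval -0.73 to 3.31, limma adjusted p = 0.93). An exact permutation test on 3 against 3 libraries cannot go below 0.1. CCR3 had a scaled change of 0.44 (-0.54 to 1.41), GATA2 of 0.37 (-0.55 to 1.29), FCER1A of 0.16 (-0.84 to 1.16), IL5RA of 0.07 (-0.72 to 0.85) and CPA3 of -0.04 (-0.60 to 0.51). In limma 0 of 6 members and 0 genes (0%) passed. At an unadjusted p under 0.05 there were 0 members and 551 genes (5.2%).

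Other genes of these cells came from lists of known eosinophil, basophil and mast cell genes. Of 12 further eosinophil genes, 11 were listed and 6 tested, and 6 of 6 rose under ABPC_EV against PBS as deposited, with a median of 1.56 against 1.41 for all genes, of which 90.9% rose. PTGDR2, SMPD3 and CYSLTR2, 3 of these 6, reached 1 in libraries of the vesicle groups only and were tested through the groups in which they were high. After scaling 0 passed, with medians of 0.28 and 0.02. ALOX15, a lipoxygenase of eosinophils, rose by 1.89 as deposited (limma adjusted p = 0.000417) and had 0.30 after scaling. PTGDR2, the prostaglandin D2 receptor of eosinophils, basophils and T helper cells, rose by 1.70 (adjusted p = 0.000417) and had 0.46 after scaling. RNASE3, the eosinophil cationic protein, stayed below the filter but had 31, 8 and 22 reads in ABPC_EV libraries, 13, 9 and 8 in FBMSC_EV libraries and 1, 1 and 1 in PBS libraries. All libraries of both vesicle groups were above all PBS libraries for RNASE3 on both scales. Among all genes tested, which leave out RNASE3, ABPC_EV lay above PBS without overlap in 85.4% as deposited and 6.78% after scaling. For FBMSC_EV above PBS these shares were 50.9% and 4.9%. In PBS replicate 1, the library with the highest scaled EPX, RNASE3 had 1 read. RNASE2 and RNASE3 are close copies, so reads may have been divided between them. Not all genes of the list went this way after scaling. Among the tested genes 5 of 6 had scaled changes above 0 under ABPC_EV against PBS, and OLIG2 had -0.31. Of the untested genes, IL1RL1 had scaled means of 0.392 under ABPC_EV and 0.526 under PBS, and HRH4 of 0.281 and 0.287. RNASE3, OLIG2, IL1RL1 and HRH4 were named after their values were seen.

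Of 17 further basophil and mast cell genes, 13 were listed and 3 tested, and 2 of 3 rose under ABPC_EV against PBS as deposited, against 90.9% of all genes. They were CMA1, which encodes mast cell chymase, with 2.57 (limma adjusted p = 0.000417), and IL3RA, the interleukin 3 receptor alpha chain, with 0.89 (adjusted p = 0.0156). IL3RA reached 1 in 3 libraries, all of them of the vesicle groups, so it too was tested through the groups in which it was high. Scaled changes were 0.95 for CMA1 and 0.23 for IL3RA. ALOX5AP, the other tested gene, did not pass as deposited (0.96, limma adjusted p = 0.0878) and had -1.05 after scaling. CMA1 had scaled values of 9.68, 9.12 and 6.47 in ABPC_EV libraries and 2.66, 6.08 and 3.31 in PBS libraries. All these ABPC_EV values were above all PBS values, which held for 6.78% of all genes tested. The scaled mean of CMA1 under ABPC_EV was 8.42, against 1.01 for CPA3 and 0.199 for HDC. Which blood cells carried CMA1 was not tested. KIT, the stem cell factor receptor that marks mast cells and progenitors, stayed below the filter, with a mean of 1.12 ± 0.192 under ABPC_EV, 0.761 ± 0.169 under FBMSC_EV and 0.59 ± 0.095 under PBS as deposited. After scaling the order of the KIT means was the opposite, with 0.585 under ABPC_EV, 0.734 under FBMSC_EV and 1.32 under PBS. Named after its values were seen, ENPP3, a basophil surface enzyme, had 2 to 4 reads in ABPC_EV libraries, 0 to 2 in FBMSC_EV libraries and 0 in PBS libraries.

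Signalling partners of the receptors were tested in the same way. All 13 IgE receptor signalling genes were tested, and 13 rose under ABPC_EV against PBS as deposited, against 90.9% of all genes. Their median was 1.54 as deposited (1.41 for all genes) and -0.29 after scaling (0.02 for all genes), so the count is near the background. FYN, a kinase downstream of the receptor, rose by 2.28 and PLCG1, a phospholipase, by 2.47 (limma adjusted p = 0.000417 for each), with 0.60 and 0.67 after scaling. Both are also signalling genes of T cells. In the interleukin 5 and STAT5 list 5 of 10 genes were tested and 5 rose, again near the background, with a median of 1.66 as deposited and -0.17 after scaling. JAK2, the kinase that serves the shared beta chain of the receptor, rose by 1.66 (adjusted p = 0.00048), with -0.08 after scaling. CISH, a target gene of STAT5, rose by 1.64 (adjusted p = 0.000671), with -0.00 after scaling. IL5 itself had 0, 1 and 4 reads in ABPC_EV libraries and 0 in all FBMSC_EV and PBS libraries, too few to compare.

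Of 8 CCR3 ligands 1 was tested, CCL5, a chemokine made mainly by T and NK cells and platelets. It rose by 2.41 (limma adjusted p = 0.00043), with 0.42 after scaling. The eotaxin CCL24 had 1, 0 and 0 reads in ABPC_EV libraries and 0 in all FBMSC_EV and PBS libraries, too few to compare. Of 12 lineage transcription factors 11 were tested and 9 rose, against 90.9% of all genes, with a median of 1.21 as deposited and -0.38 after scaling. ID2, an inhibitor of helix-loop-helix factors, rose by 2.90 and RUNX1, a blood cell factor, by 1.77 (adjusted p = 0.000417 for each), with 1.12 and 0.19 after scaling. None of the genes in these lists passed after scaling in any of the 3 comparisons.

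Markers of other cells that share members were followed beside them. Dendritic cell markers, of interest because these cells carry FCER1A, had 4 of 8 genes tested. Under ABPC_EV against PBS as deposited 3 of the 4 rose, against 90.9% of all genes. The summed level of the dendritic cell markers was 57.9 to 120 under ABPC_EV, 34.9 to 76.6 under FBMSC_EV and 16.8 to 93.5 under PBS. After scaling it was 23.6 to 60.5, 29 to 80 and 44.8 to 123. CD1C made up most of this sum in every library, as with 90.7 of 93.5 in PBS replicate 3 as deposited, so the sum mainly describes that gene. CD1E was at 0 in PBS. The 2 tested dendritic cell genes with the smallest p were LILRA4 (1.74, limma adjusted p = 0.000474), a receptor of plasmacytoid cells, and CLEC10A (1.17, adjusted p = 0.00367), a lectin of conventional ones. CLEC10A reached 1 in libraries of the vesicle groups only. After scaling LILRA4 had 0.28 and CLEC10A 0.15. Blood progenitor markers, which may accompany GATA2, summed to 2.13 to 10.2 under ABPC_EV, 1.57 to 5.44 under FBMSC_EV and 0.464 to 1.31 under PBS as deposited. After scaling they summed to 0.982 to 4.14, 1.58 to 4.52 and 0.613 to 2.75. Of 6 such genes 1 was tested, SPINK2, and CRHBP was at 0 in both vesicle groups. SPINK2 made up most of the sum in every library, so these sums mainly describe 1 gene. Its means as deposited were 4.28 under ABPC_EV, 3 under FBMSC_EV and 0.651 under PBS. Platelet and megakaryocyte markers summed to 129 to 816 under ABPC_EV, 115 to 228 under FBMSC_EV and 55.1 to 123 under PBS as deposited. After scaling these sums were 52.4 to 375, 98 to 229 and 162 to 196. Of 7 such genes 5 were tested and 5 rose under ABPC_EV against PBS as deposited. With 90.9% of all genes risen, that count is near the background. The part of these cells in the FCER1A and GATA2 values was not tested.

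Markers of other myeloid cells were compared on both scales. Of 8 monocyte markers 7 were tested and 7 rose under ABPC_EV against PBS as deposited, against 90.9% of all genes, with sums of 498 to 712 under ABPC_EV, 269 to 948 under FBMSC_EV and 147 to 211 under PBS. After scaling the sums were 259 to 335, 281 to 956 and 278 to 445 in the same order. Of 10 neutrophil markers 10 were tested and 7 rose, a smaller share than the 90.9% of all genes, and S100A8, S100A9 and MME did not pass (limma adjusted p of 0.455, 0.125 and 0.108). Neutrophil sums were 1085 to 2550 under ABPC_EV, 759 to 3250 under FBMSC_EV and 396 to 1073 under PBS as deposited, and 442 to 1173, 630 to 3277 and 546 to 2259 after scaling. Median changes in ABPC_EV against PBS after scaling were 0.19 for monocyte, -0.44 for neutrophil, -0.04 for platelet and 0.21 for dendritic cell markers. Erythroid markers, by contrast, had 0 of 10 genes risen and 1 fallen as deposited, the fetal globin gene HBG2 (-4.04, limma adjusted p = 0.000417), and a median of -2.27 after scaling.

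Tested genes whose scaled pattern over the 9 libraries was most like that of CCR3, the most abundant eosinophil member, were GON7, SLC29A1, FBXW9, TIFAB and GCHFR, with a Pearson likeness between 0.826 and 0.918. For FCER1A, the most abundant basophil and IgE receptor member, they were ACTR5, SOCS7, C1H1orf109, DNAJA4 and SEC63, between 0.873 and 0.937. These are the highest among those of the 10596 tested genes that carry a symbol (no LOC number) and are not members. They share libraries and size factors with the members, and are given as a description. Spearman rank correlations over the 9 libraries were 0.60 to 0.73 for the CCR3 set and 0.77 to 0.97 for the FCER1A set.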

How the data were processed

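RNA of whole blood was measured in 9 libraries, 3 per group, 1 per animal. Per the labels, total RNA went into a NEBNext Ultra RNA kit and was read in pairs by Illumina sequencing, and per the submitters' processing notes the genome build was Mmul_10. Deposited values are log2 values, made with an aligner and a counting program not given in the sources used here. In every library the lowest is -1.00000144, which is log2 of a value of 0 plus 0.5 under a total of 1000000 plus 1, and values with the log2 undone sum to that total within 2 per library. All 9 columns were mapped to samples.

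Relative depth came from ratios of low values between libraries. With it, 21545 of 21551 genes above 0 in 2 or more libraries (99.972%) gave whole reads within 0.001. Recovered reads are reconstructed, and a common divisor of all reads of a gene cannot be told. They serve for depth and for limma-voom.

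The main test was limma (3.58.1, trended variance, R 4.3.3) on log2(value + 1). It covered the 10596 genes that reached 1 in 3 libraries or more, fitted group alone to all 9 libraries together, and took Benjamini-Hochberg adjusted p-values over those genes at 0.05. The script was tested on simulated data. Median-ratio size factors used 10175 of these genes that were above 0 in every library. Alternatives were a pseudocount of 0.5, no filter, only the 2 groups compared, a replicate block, removal of a list of 10 erythroid genes, limma-voom and leaving out each library. A planned quasi-likelihood count test was not run, because the deposited unit is a log2 value and not a count. Members and lists were chosen with earlier results of these data known. All members are named. For each other list the 2 tested genes with the smallest p under ABPC_EV against PBS were the rule. The genes it picked in the monocyte, neutrophil and platelet lists are not named. SPINK2 is the gene it picked in the progenitor list, and for the erythroid list only HBG2 is named. Genes named beyond the rule were chosen after their values were seen. Gene names are those of the table.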

Additional observations from a re-analysis of the deposited data

How the results depend on the processing

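Calls of members under ABPC_EV against PBS as deposited stayed at 6 of 6 with a pseudocount of 0.5, no filter, 2 groups or the replicate block, and with each library left out (6 to 6). When the 10 erythroid genes were removed and the remainder rescaled, 0 members and 0 genes passed in each of the 3 comparisons, with changes from 0.77 (FCER1A) to 1.95 (CCR3, adjusted p = 0.0855) for ABPC_EV against PBS, -0.33 (EPX) to 1.14 (CCR3) for FBMSC_EV against PBS, and 0.21 (CPA3) to 2.08 (EPX) for ABPC_EV against FBMSC_EV. Genes called under ABPC_EV against PBS as deposited ranged from 8728 to 9699 with each library left out.

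Counts of genes called as deposited moved more in the other comparisons. For FBMSC_EV against PBS they were 1 with no filter, 1063 with only these groups (CCR3 as 1 member called) and 44 with the replicate block, and 13 to 4526 with each library left out (0 to 1 members). For ABPC_EV against FBMSC_EV they were 11 with no filter, 23 with only these groups and 3406 with the replicate block (3 members: EPX, CCR3 and GATA2), and 45 to 4863 with each library left out (0 to 5 members). The series design names no pairing of samples by replicate number. Deviations of libraries with the same number correlated between -0.25 and 0.28. Libraries of unlike number were not compared, so these correlations cannot settle whether the numbers pair samples.

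After scaling, counts were 4, 1 and 5 with no filter for ABPC_EV against PBS, FBMSC_EV against PBS and ABPC_EV against FBMSC_EV, 1 with the replicate block for FBMSC_EV against PBS, and 1, 0 and 0 by limma-voom on recovered reads (960, 445 and 642 at an unadjusted p under 0.05), with 0 members called. With each library left out they were 0 to 121 (121 without PBS replicate 3), 0 to 2 and 0 to 0, and members called were 0 to 0 in each.

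Uncalled changes of members turned sign in 29 leave-one-out fits and in 6 other alternatives. EPX in FBMSC_EV against PBS as deposited was -0.33 without the erythroid list and -0.45 to 0.95 with each library left out. After scaling, FCER1A in ABPC_EV against PBS was 0.02 with the smaller pseudocount and 0.29 by limma-voom. In FBMSC_EV against PBS, IL5RA was 0.05 and 0.74, and FCER1A was 0.02 by limma-voom. Scaled ranges with each library left out were, for ABPC_EV against PBS, -0.08 to 1.93 (EPX), -0.24 to 0.56 (IL5RA), -0.06 to 0.33 (CPA3) and -0.48 to 0.55 (FCER1A). For FBMSC_EV against PBS they were -1.41 to 0.59 (EPX), -0.31 to 0.49 (IL5RA), -0.26 to 0.49 (GATA2), -0.01 to 0.38 (CPA3) and -0.64 to 0.37 (FCER1A). For ABPC_EV against FBMSC_EV they were -0.05 to 0.18 (IL5RA), -0.18 to 0.11 (CPA3) and -0.04 to 0.41 (FCER1A). The cause was not tested. Depth limits PRG2, HDC and MS4A2 most, with at most 19 reads in any library.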
